A study of Mus musculus with 6 samples.

Results

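Genes that carry glucose into the cell, break it down and move lactate across the membrane make up a pathway followed here in mouse retinal ganglion cells (RGCs), the neurons whose axons form the optic nerve. They were Slc2a1 and Slc2a3 (glucose transporters), Hk1 and Hk2 (hexokinases), Aldoa and Pgk1 (enzymes of the glycolytic chain), Ldha and Ldhb (lactate dehydrogenases), and Slc16a1 and Slc16a3 (lactate transporters). They were chosen by name, from a pathway, because Slc16a3 was among the largest falls between E18 and P5, and they are 10 of the 17027 gene symbols in the table. The samples were labelled as RGCs of wild-type C57/6NCrl mice at embryonic day 18 (E18), at postnatal day 5 (P5) and at 8 weeks of age (Adult), 6 libraries in all, 2 for each. The cells were caught on antibody to Thy1, a surface protein of RGCs, after other antibodies had removed macrophages and, by the sample protocol, amacrine cells. No animal carried a transgene or received a treatment by the labels, and the sources used here do not give how many animals or retinas went into a library. PolyA-selected RNA was sequenced as paired reads of 100 bases, and levels are in FPKM, a unit that counts fragments relative to transcript length and to the size of the library, so that levels can be set side by side between genes.

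Glycolysis splits glucose into pyruvate and yields ATP without oxygen, and lactate dehydrogenase turns pyruvate into lactate to restore the cofactor that the chain consumes. Glucose enters through facilitative transporters of the Slc2 family, and lactate leaves or enters with a proton through monocarboxylate transporters of the Slc16 family. The retina is known for making lactate even when oxygen is present, with photoreceptors as a large consumer of glucose, and hypoxia-inducible factors are known to drive many genes of this pathway.

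The pathway was lowest at P5 and highest in Adult libraries for several of its genes. Both P5 libraries lay below all 4 other libraries for 6 of the 10 genes (Slc2a1, Hk2, Aldoa, Pgk1, Ldha and Slc16a3), as they did for 13.7% of all tested genes; the E18 and P5 levels chose the genes, so nothing is read from that count. Both Adult libraries lay above all 4 others for 6 genes (Slc2a1, Hk2, Aldoa, Pgk1, Ldhb and Slc16a1), against 29.8% of all tested genes. Added over the 10 genes, the level was 1295 and 1418 FPKM (E18), 1000.3 and 803 FPKM (P5), 2617 and 2465 FPKM (Adult). That sum was 0.247% and 0.257% of all FPKM (E18), 0.202% and 0.165% (P5), 0.327% and 0.288% (Adult). Aldoa carried the place of Adult in that share: without it, the other 9 genes made up 0.168% and 0.174% (E18), 0.120% and 0.102% (P5), 0.147% and 0.125% (Adult), highest at E18. In bulk samples, fewer cells of a type and less RNA per cell cannot be told apart.

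The libraries differed in their cell markers, and the Adult libraries went against their label. Added over 11 RGC markers, the level was 2644 and 3119 FPKM (E18), 3278 and 2996 FPKM (P5), 472 and 284 FPKM (Adult). Thy1, the protein on which the cells were caught, gave 138 and 129 FPKM of the Adult sums. All 10 rod photoreceptor markers were in the table, and their sum was 5469 FPKM in Adult replicate 1 and 646 FPKM in Adult replicate 2, against 1.53 to 2.99 FPKM in the 4 younger libraries. Amacrine markers (7 of 7 in the table) summed to 707 and 890 FPKM in Adult libraries, against 5.20 to 24.8 FPKM in the younger ones. Gad1 gave 298 and 450 FPKM of the Adult sums, and Chat alone did not rise, at 0.0296 and 0.0199 FPKM against 0.0220 to 1.02 FPKM. Markers of Muller glia and astrocytes (6 of 8) summed to 935 and 1065 FPKM, against 98.6 to 134 FPKM. Most of that sum was Glul, at 616 and 702 FPKM in Adult libraries and 94.4 to 125 FPKM in the younger ones. No marker of these 3 lists was at 0 in an Adult library, and 1 rod marker was at 0 in E18 replicate 1, in E18 replicate 2 and in P5 library b. Endothelium and pericyte markers (4 of 8) summed to 32.2 and 44.2 FPKM in Adult libraries, against 1.90 to 9.62 FPKM in the younger ones. Bipolar markers summed to 91.0 and 101 FPKM, against 6.48 to 10.6 FPKM, and cone markers to 84.3 and 79.2 FPKM, against 0.193 to 5.42 FPKM. Oligodendrocyte markers (4 of 5) went the other way, at 11.8 and 13.5 FPKM against 17.9 to 24.3 FPKM. Progenitor markers summed to 94.2 FPKM in E18 replicate 1 and 8.37 FPKM in E18 replicate 2. The part of these other cells in the differences between Adult and the younger ages described here was not tested.

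Slc2a1 (chr4:119108711-119137983, GRCm38) encodes GLUT1, the glucose transporter of barrier endothelium, glia and many growing cells. Its level was 19.7 and 14.7 FPKM (E18), 3.55 and 2.90 FPKM (P5), 45.2 and 44.6 FPKM (Adult). The 3 ages did not overlap, with P5 at the bottom and Adult at the top. Slc2a1 rose in Adult against P5 by 13.9 times in mean FPKM (log2 change 3.45 ± 0.17, SE, on log2(FPKM + 1), adjusted p = 4.6e-05; limma with Benjamini-Hochberg adjustment over all tested genes, 2 libraries per age, here and below). It also rose in Adult against E18, by 2.61 times (log2 change 1.35 ± 0.17, adjusted p = 0.000758). Between P5 and E18, which was the contrast used to choose the genes and is given without a test for all 10, its mean was 5.33 times lower at P5 (log2 change -2.10).

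Slc2a3 (chr6:122727809-122801640) encodes GLUT3, the high-affinity glucose transporter of neurons. Its level was 50.1 and 67.0 FPKM (E18), 64.8 and 66.0 FPKM (P5), 63.0 and 70.7 FPKM (Adult). The ages overlapped throughout. Slc2a3 did not pass the test in Adult against P5 (log2 change 0.03, 95% interval -0.34 to 0.40, adjusted p = 0.884) or in Adult against E18 (0.20, -0.17 to 0.57, adjusted p = 0.294). Its direction depended on the scaling and on single libraries. When every library was rescaled to the same sum (TPM), it was called lower in Adult (log2 change -0.72, adjusted p = 0.00293, against P5; -0.41, adjusted p = 0.0296, against E18). With quantile normalization it was called higher in Adult against E18 (0.53, adjusted p = 0.015), as with scaling to protein-coding genes (0.57, adjusted p = 0.0166). Without Adult replicate 2 the change against P5 was -0.05, and without E18 replicate 1 the change against E18 was -0.01, neither called.

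Hexokinases trap glucose in the cell by phosphorylation. Hk1 (chr10:62268855-62379908), the hexokinase that prevails in brain, had 49.6 and 54.6 FPKM (E18), 60.8 and 60.1 FPKM (P5), 85.9 and 56.6 FPKM (Adult). The Adult libraries lay on either side of P5. Hk1 was not called in Adult against P5 (log2 change 0.20, 95% interval -0.26 to 0.67, adjusted p = 0.393) or in Adult against E18 (0.42, -0.05 to 0.88, adjusted p = 0.106). Adult replicate 1 decided these values: without Adult replicate 2 the changes were 0.50 (adjusted p = 0.0212) and 0.71 (adjusted p = 0.00808), while without Adult replicate 1 the change against P5 was -0.09 (adjusted p = 0.518). Scaling also moved them: with TPM, Hk1 was lower in Adult and not called (-0.54 against P5 and -0.20 against E18), and it was called higher with quantile normalization (0.57 and 0.76) and with scaling to protein-coding genes (0.53 and 0.79).

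Hk2 (chr6:82725025-82774454) encodes the hexokinase of muscle and growing cells, known in the retina mainly from photoreceptors. It was the lowest of the 10 genes in every library, at 1.60 and 1.22 FPKM (E18), 0.264 and 0.367 FPKM (P5), 23.5 and 5.35 FPKM (Adult). The 3 ages did not overlap, but the Adult libraries differed 4.39 times from each other, more than all but 1.72% of tested genes. Hk2 rose in Adult against P5 (log2 change 3.25 ± 0.58, adjusted p = 0.0036) and in Adult against E18 (2.38 ± 0.58, adjusted p = 0.0123). It passed the level filter of the tests, a mean of at least 1 FPKM, only through its Adult libraries, which limits what these calls show. Against P5 the change was 2.27 without Adult replicate 1 and 4.22 without Adult replicate 2, and against E18 it was 1.40 and 3.35; all 4 were called. The call against E18 was lost without E18 replicate 1 (adjusted p = 0.0525) and without E18 replicate 2 (adjusted p = 0.0701). The rod marker sum differed 8.47 times between the same Adult libraries, in the same direction; its part in the Hk2 level was not tested.

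Aldoa and Pgk1 stand in the middle of the chain. Aldolase A, from Aldoa (chr7:126795234-126809108), splits the phosphorylated fructose into triose phosphates, and it was the highest of the 10 genes in every library. Its level was 412 and 462 FPKM (E18), 407 and 308 FPKM (P5), 1442 and 1399 FPKM (Adult). The younger ages lay close together, with P5 library a just under E18 replicate 1, and Adult stood far above both. Aldoa rose 3.97 times in Adult against P5 (log2 change 2.001 ± 0.15, adjusted p = 0.000149) and 3.25 times in Adult against E18 (1.70 ± 0.15, adjusted p = 0.000216). P5 against E18 had a log2 change of -0.30, or -0.10 with library b left out and -0.50 with library a left out.

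Pgk1 (chrX:106187100-106203699) encodes phosphoglycerate kinase, which makes ATP directly in the chain. Its level was 222 and 234 FPKM (E18), 133 and 110.5 FPKM (P5), 329 and 303 FPKM (Adult). The 3 ages did not overlap. Pgk1 rose 2.59 times in Adult against P5 (log2 change 1.37 ± 0.12, adjusted p = 0.000237) and 1.38 times in Adult against E18 (0.47 ± 0.12, adjusted p = 0.0157). The call against E18 was lost without Adult replicate 1 (adjusted p = 0.08124), without either of the E18 libraries (0.08962 without replicate 1 and 0.0603 without replicate 2), and with TPM the change was -0.15 and not called. In P5 against E18 the log2 change was -0.91.

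Lactate dehydrogenase is built of A subunits, from Ldha, which favour making lactate, and B subunits, from Ldhb, which favour using it. Ldha (chr7:46841475-46855627) had 380 and 418 FPKM (E18), 199.5 and 139 FPKM (P5), 395 and 348 FPKM (Adult). Adult and E18 overlapped, and both P5 libraries lay below them. Ldha rose 2.20 times in Adult against P5 (log2 change 1.15 ± 0.18, adjusted p = 0.00223) and was not called in Adult against E18 (-0.10, 95% interval -0.54 to 0.33, adjusted p = 0.638). The first call was lost with TPM (0.40, adjusted p = 0.0856). The change against E18 was called lower with TPM (-0.73, adjusted p = 0.0105) and was positive but not called with quantile normalization (0.34) and with scaling to protein-coding genes (0.26). In P5 against E18 the log2 change was -1.26.

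Ldhb (chr6:142490249-142507957) took another course than Ldha. Its level was 93.2 and 83.0 FPKM (E18), 114 and 103 FPKM (P5), 166 and 179 FPKM (Adult). Each age lay above the one before it without overlap. Ldhb rose 1.59 times in Adult against P5 (log2 change 0.67 ± 0.11, adjusted p = 0.00271) and 1.96 times in Adult against E18 (0.96 ± 0.11, adjusted p = 0.000571). With TPM the change against P5 was -0.08 and not called. In P5 against E18 the log2 change was 0.30, the opposite sign to that of Ldha.

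Monocarboxylate transporters move lactate and pyruvate together with protons. Slc16a1 (chr3:104638668-104658462) encodes MCT1, found in most tissues, and Slc16a3 (chr11:120948480-120960868) encodes MCT4, the low-affinity form of cells that export lactate. Slc16a1 had 4.64 and 4.46 FPKM (E18), 7.48 and 7.05 FPKM (P5), 24.98 and 14.8 FPKM (Adult). Like Ldhb, it was higher at each later age, with no overlap. Slc16a1 rose 2.74 times in Adult against P5 (log2 change 1.29 ± 0.23, adjusted p = 0.00387) and 4.37 times in Adult against E18 (1.87 ± 0.23, adjusted p = 0.000821). The first of these calls was lost with TPM (0.62, adjusted p = 0.072). Its Adult libraries differed 1.69 times, more than all but 7.34% of genes.

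Slc16a3 had 61.5 and 78.2 FPKM (E18), 9.38 and 6.62 FPKM (P5), 42.5 and 43.5 FPKM (Adult). The 3 ages did not overlap, with P5 far below the others and Adult between P5 and E18. Since its E18 and P5 levels chose it, its changes are given without a test: the mean was 8.73 times lower at P5 than at E18 (log2 change -2.98), 5.38 times higher in Adult than at P5 (2.31), and lower in Adult than at E18 (-0.68). Among the 7296 genes with at least 10 FPKM at E18, Slc16a3 had rank 8 from the lowest change in P5 against E18, and among the 6796 left without symbols of predicted genes and small RNAs it had the lowest.

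**Figure D1:**
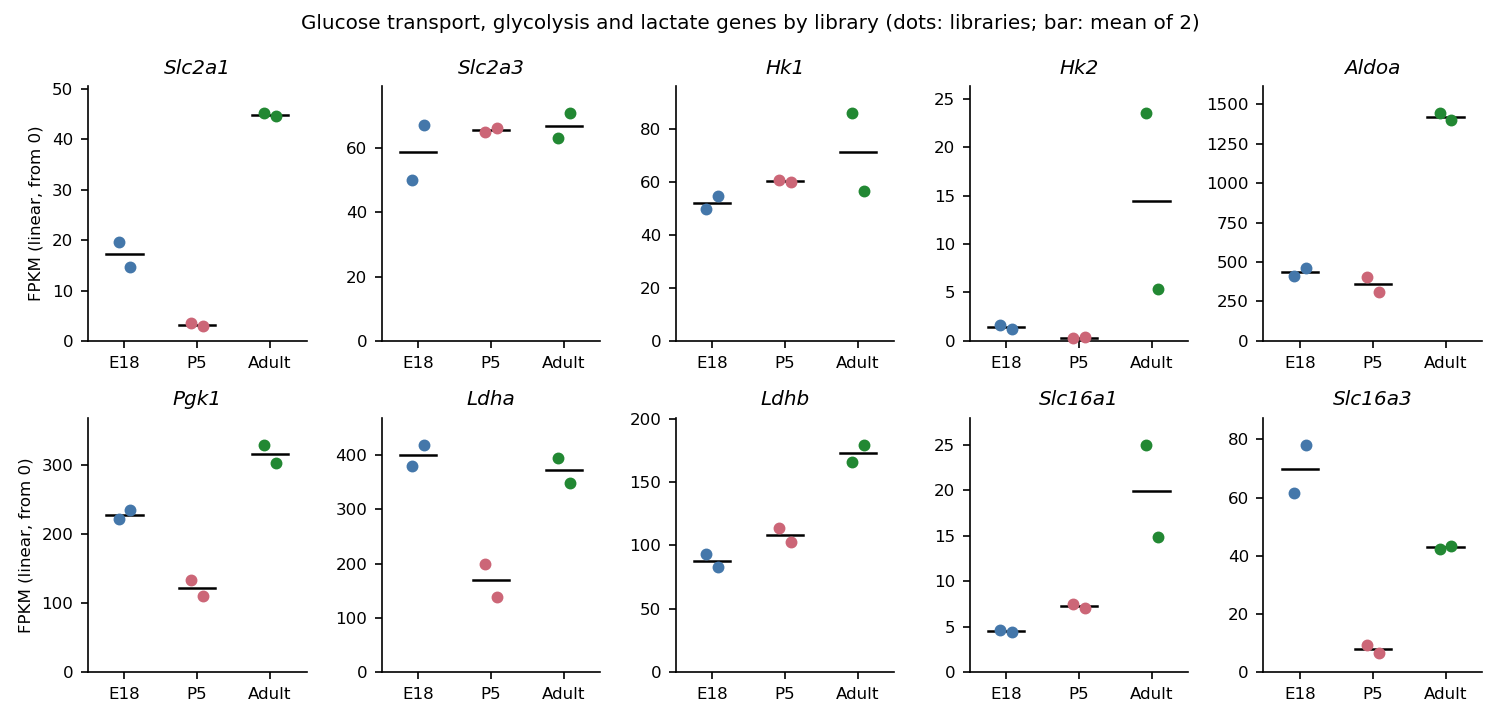
Levels of the 10 genes in FPKM (linear axes from 0) at E18, P5 and Adult, 1 dot per library and a bar at the mean of 2. Slc16a3, Slc2a1, Ldha and Pgk1 dip at P5, Ldhb and Slc16a1 climb with age, and Aldoa stands at 1442 and 1399 FPKM in Adult libraries.

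Within each age, Aldoa stood first in the order of levels and Hk2 last. Ldha was next and Pgk1 after it at every age, and at E18 the ranges of Aldoa and Ldha and at P5 those of Pgk1 and Ldhb overlapped. Slc16a3 ranked 5 at E18, with a mean of 69.8 FPKM and a range that overlapped that of Slc2a3. At P5 it ranked 7, at 8.00 FPKM, and overlapped Slc16a1, and in Adult libraries it ranked 8, at 43.0 FPKM, just below Slc2a1 at 44.9 FPKM.

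Of the 9 genes tested in Adult against P5, 7 rose and 0 fell, where 26.2% of all tested genes were called higher, 33.7% lower and 59.8% in either direction. The median log2 change of the 10 genes was 1.33, against -0.07 for all tested genes. In Adult against E18, 6 of 9 rose and 0 fell, with backgrounds of 25.3% higher, 34.4% lower and 59.7% either way, and medians of 0.72 and -0.11. Hk2, counted as a rise in both comparisons, passed the level filter only through its Adult libraries. The medians of the 10 genes include Slc16a3 (log2 changes 2.31 and -0.68), whose E18 and P5 levels chose it, so they are a description. The counts of falls stayed 0 at an unadjusted p under 0.05 in the same limma fit, but with TPM 4 rose and 1 fell against P5, and 5 rose and 2 fell against E18. Without Adult replicate 1, the library richest in rod markers, 7 of 9 were called higher against P5 and 5 of 9 against E18; without E18 replicate 1, and likewise without E18 replicate 2, 4 of 9 were called higher against E18. Adult against P5 shares the P5 libraries, and Adult against E18 the E18 libraries, with the contrast that chose the genes. In that contrast, 6 of the 10 genes were lower in both P5 libraries than in both E18 libraries, 3 were higher and 1 overlapped. Of all tested genes, 34.2% were lower and 29.0% higher in the same way, and 10.5% were called in either direction; nothing is read from the count of the 10.

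Adult libraries held more FPKM in all, 800480 and 854710, against 485420 to 550830 in the younger ones, so scaling mattered. With TPM the median of all tested genes was -0.76 in Adult against P5 and -0.68 in Adult against E18, and with scaling to protein-coding genes it was 0.22 in both. Relative to that median, the median of the 10 genes in Adult against P5 was 1.41 as deposited, 1.38 with TPM, 1.47 with scaling to protein-coding genes and 1.65 with quantile normalization. In Adult against E18 the same difference was 0.83, 0.78, 0.87 and 1.28. Slc16a3, whose E18 and P5 levels chose it, is among the 10 genes in these medians, so they are a description.

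Sequences before the start sites of 4 genes, Slc2a1, Pgk1, Ldha and Slc16a3, are shown. They are among the 6 genes that were lowest at P5, and Hk2 and Aldoa, the others, are not shown. The E18 and P5 levels chose the genes, so nothing is read from that course. Hypoxia-inducible factors are known to bind the core letters ACGTG or GCGTG. Each is the 250 bases before a start site in RefSeq (GRCm38.p6), 5′ to 3′, with these letters in capitals on either strand, so that CACGT marks ACGTG and CACGC marks GCGTG on the other strand. CACGTG holds ACGTG on both strands and was counted on each.
Slc2a1, chr4:119108495-119108744, + strand: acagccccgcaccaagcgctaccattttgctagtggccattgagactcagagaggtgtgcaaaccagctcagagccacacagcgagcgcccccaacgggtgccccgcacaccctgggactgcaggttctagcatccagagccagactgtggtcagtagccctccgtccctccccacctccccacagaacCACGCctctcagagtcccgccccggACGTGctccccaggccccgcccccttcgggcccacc
Pgk1, chrX:106186850-106187099, + strand: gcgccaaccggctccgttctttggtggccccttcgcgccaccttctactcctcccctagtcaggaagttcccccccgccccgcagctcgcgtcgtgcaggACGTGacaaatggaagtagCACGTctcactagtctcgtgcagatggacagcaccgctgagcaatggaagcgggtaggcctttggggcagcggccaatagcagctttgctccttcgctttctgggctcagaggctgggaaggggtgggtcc
Ldha, chr7:46845554-46845803, + strand: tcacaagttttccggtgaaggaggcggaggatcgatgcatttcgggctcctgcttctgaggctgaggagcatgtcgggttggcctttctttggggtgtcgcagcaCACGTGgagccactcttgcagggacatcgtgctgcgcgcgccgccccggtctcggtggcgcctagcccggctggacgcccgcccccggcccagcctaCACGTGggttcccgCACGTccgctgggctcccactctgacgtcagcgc
Slc16a3, chr11:120948817-120949066, + strand: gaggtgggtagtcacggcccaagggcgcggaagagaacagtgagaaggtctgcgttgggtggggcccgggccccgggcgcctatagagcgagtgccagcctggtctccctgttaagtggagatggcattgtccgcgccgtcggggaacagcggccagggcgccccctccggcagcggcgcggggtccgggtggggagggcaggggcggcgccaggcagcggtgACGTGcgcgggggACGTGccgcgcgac
Slc16a3 held ACGTG at 27 and 14 bases before the start, and Ldha held 5 matches, of which 4 form the palindrome CACGTG at 2 places. All 9 of the genes with an entry in the sequence table held at least 1 match, in 11 of their 13 windows; Slc2a3 was not among them. The letters are common: 56.4% of the 11663 windows of tested genes and 63.1% of 8999 tested genes with an entry held a match. Genes of other courses held matches too: in 1 window each, Slc16a1, higher at each later age, held 4, Hk1 held 3 and Ldhb held 1. A match describes the letters only, and its part in the levels was not tested. For 7 of the 9 genes, Ldha and Slc16a1 aside, the bases after the start occurred in the leading transcript of the deposited table; the Ldha window shown is thus not that of its leading transcript by this measure.

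The balance between isozymes moved with age. The share of Ldha in the summed level of Ldha and Ldhb was 80.3% and 83.5% (E18), 63.6% and 57.5% (P5), 70.4% and 66.0% (Adult). The 3 ages did not overlap. Slc2a1 made up 28.2% and 18.005% of Slc2a1 and Slc2a3 (E18), 5.20% and 4.20% (P5), 41.8% and 38.7% (Adult). Among the transporters MCT4, MCT1 and MCT2 (Slc16a3, Slc16a1 and Slc16a7), Slc16a3 made up 86.8% and 89.3% (E18), 36.0% and 39.0% (P5), 60.3% and 69.8% (Adult). Hk2 made up 3.12% and 2.19% of the hexokinase pair (E18), 0.432% and 0.607% (P5), 21.5% and 8.63% (Adult). Aldoc, the aldolase of brain and of glia in particular, made up 2.48% and 2.06% of the aldolase pair (E18), 5.61% and 4.05% (P5), 18.1% and 22.3% (Adult). Eno2, the neuronal enolase, made up 11.4% and 12.5% of Eno1 and Eno2 (E18), 44.3% and 40.5% (P5), 34.1% and 35.5% (Adult). The ages did not overlap in these 6 shares. In a further share they did: Slc16a1 made up 6.55% and 5.10% of the 3 transporters (E18), 28.7% and 41.6% (P5), 35.5% and 23.8% (Adult), with P5 and Adult overlapping. The shares were not tested, and the E18 and P5 levels of Slc16a3 are those that chose it.

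**Figure D2:**
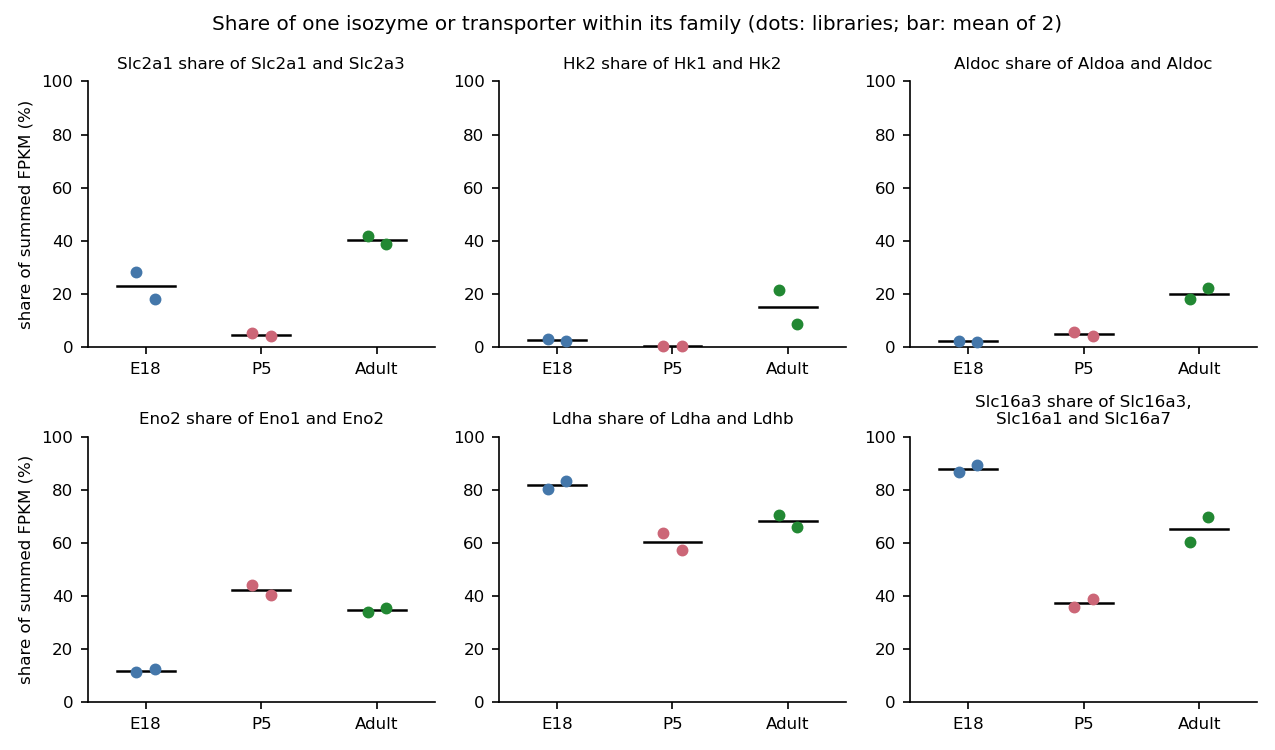
Share (%) of 1 isozyme or transporter in the summed FPKM of its family at E18, P5 and Adult, with a dot per library and a bar at the mean of 2. The shares of Slc2a1, Hk2, Ldha and Slc16a3 are lowest at P5, while that of Eno2 is highest there, at 44.3% and 40.5%.

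The table splits each gene into isoforms, and some isoforms of a gene took different courses. Of 51 isoforms of the 10 genes, 38 had a mean of at least 1 FPKM, and 33 of these belonged to genes other than Slc16a3 and were tested. In Adult against P5, 18 rose and 3 fell, where 19.2% of all tested isoforms were called higher and 24.1% lower. In Adult against E18, 17 rose and 2 fell, against 17.9% and 26.8%. Some of the rises, such as those of Hk1-212 and the 1549-base Aldoa-202, belong to isoforms that reached a mean of 1 FPKM only through Adult libraries.

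Within Aldoa, the transcript of 1511 bases, Aldoa-201, had 311 and 348 FPKM (E18), 222 and 180 FPKM (P5), 1277 and 1286 FPKM (Adult). A form of 1346 bases that the table marks as a variant of Aldoa-202 outside the annotation had 87.0 and 98.0 FPKM (E18), 168 and 113 FPKM (P5), 39.3 and 35.6 FPKM (Adult). The pair moved in opposite directions: Aldoa-201 rose in Adult against P5 (log2 change 2.67, adjusted p = 0.000181, over all isoforms) and the variant fell (-1.85, adjusted p = 0.00137). The variant also fell in Adult against E18 (-1.28, adjusted p = 0.004315). It held 41.2% and 36.7% of the Aldoa level at P5, against 21.1% and 21.2% at E18.

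The Slc16a3 transcript of 2386 bases, Slc16a3-202, had 35.1 and 40.3 FPKM (E18), 5.20 and 3.96 FPKM (P5), 9.40 and 9.71 FPKM (Adult). The transcript of 2272 bases, Slc16a3-201, had 5.18 and 8.70 FPKM (E18), 0.420 and 0.458 FPKM (P5), 9.76 and 11.3 FPKM (Adult). So the longer form led at E18 and at P5, with 57.1% and 51.6% and with 55.4% and 59.9% of the gene, and held 22.1% and 22.3% in Adult libraries. The short Slc16a3-203, of 975 bases, had 9.67 and 18.6 FPKM (E18), 0.791 and 0.00472 FPKM (P5), 9.86 and 12.5 FPKM (Adult). The division of the gene's level among its transcripts is Cufflinks' estimate.

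Hk1-202, of 4278 bases and the main Hk1 transcript, had 45.1 and 50.3 FPKM (E18), 52.5 and 52.0 FPKM (P5), 47.1 and 44.0 FPKM (Adult). It was not called in Adult against P5 (adjusted p = 0.207) or against E18 (adjusted p = 0.669). The higher gene sum in Adult replicate 1 lay in other transcripts, such as Hk1-212 of 896 bases, at 17.8 FPKM in that library and 3.31 FPKM in Adult replicate 2. Hk1-212 had at most 0.196 FPKM in the 4 younger libraries. Both transcripts of Slc2a1 moved alike: Slc2a1-201 and Slc2a1-204 rose in Adult against P5 (log2 changes 3.23 and 3.10, adjusted p = 0.000306 and 0.000292).

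**Figure D3:**
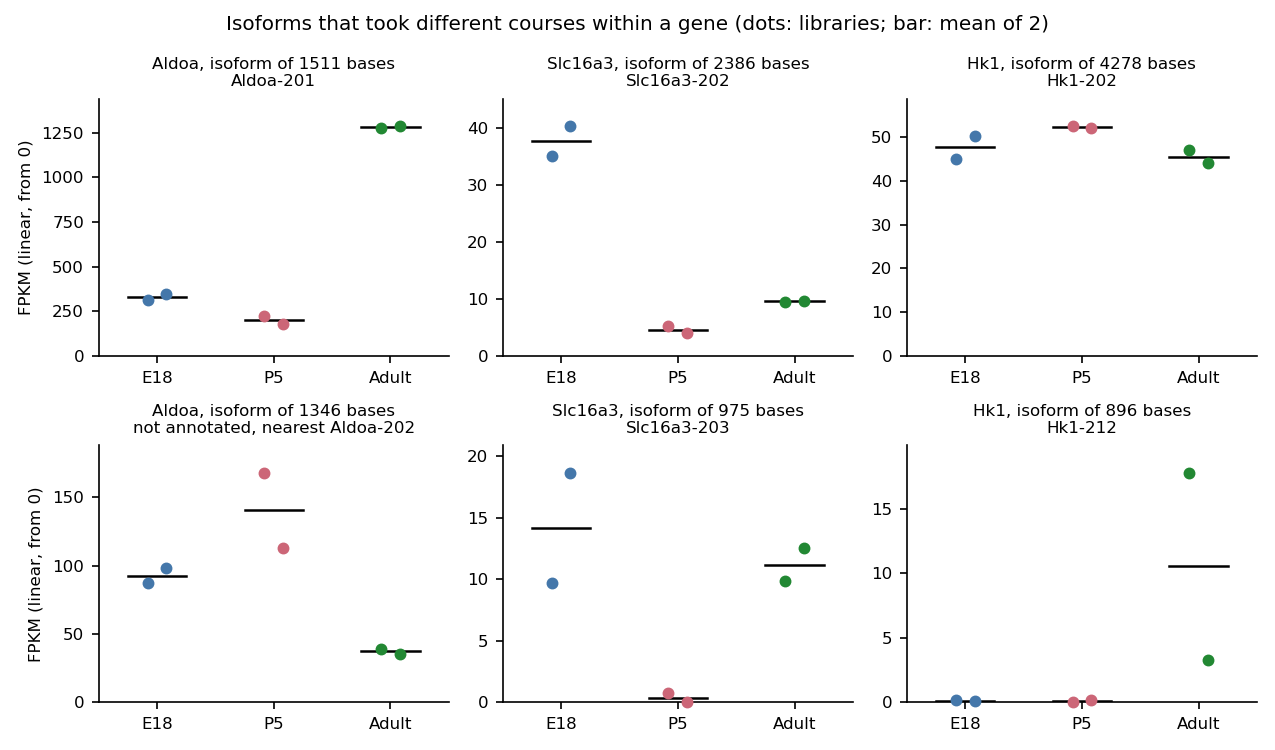
Levels (FPKM, linear axes from 0) of 2 isoforms each of Aldoa, Slc16a3 and Hk1 at E18, P5 and Adult, with a dot per library and a bar at the mean of 2. Aldoa-201 stands at 1277 and 1286 FPKM in Adult libraries while the 1346-base variant is lowest there, and Slc16a3-202 stays near 10 FPKM in Adult libraries while Slc16a3-203 is back in its E18 range.

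The rest of the glycolytic chain was looked at through a list of 23 other enzymes, of which 17 were in the table and 16 were tested. In P5 against E18, 6 fell (Gpi1, Pfkl, Tpi1, Pgam1, Eno1 and Pkm) and 1 rose (Eno2), where 4.95% of all tested genes were called lower and 5.52% higher. Pfkl, the liver-type phosphofructokinase, had 34.6 and 30.6 FPKM at P5, against 86.7 and 94.2 FPKM at E18 (log2 change -1.45, adjusted p = 0.00509). Eno1, the common enolase, had 158 and 139 FPKM at P5, against 354 and 331 FPKM at E18 (-1.20, adjusted p = 0.00751). Pkm, pyruvate kinase, had 311 and 301 FPKM at P5, against 567 and 561 FPKM at E18 (-0.88, adjusted p = 0.0156). Eno2 went the other way, at 126 and 94.9 FPKM at P5 against 45.5 and 47.2 FPKM at E18 (1.22, adjusted p = 0.011). These calls leaned on single libraries: leaving out E18 replicate 1 left 0 falls, leaving out E18 replicate 2 left 1, P5 library a 0, P5 library b 3 and either Adult library 3. The Eno2 call was lost when E18 replicate 1 (adjusted p = 0.114), E18 replicate 2 (0.0752) or library a of P5 (0.0666) was left out. The direction of all 7 stayed the same in each case.

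In Adult against P5, 13 of the 16 rose and 1 fell, where 26.2% of all tested genes were called higher and 33.7% lower. In Adult against E18, 12 rose and 2 fell, where the shares of all tested genes were 25.3% and 34.4%. Ldhd, counted as a rise in both comparisons, passed the level filter only through its Adult libraries. Its means were 2.90 FPKM in Adult libraries, 0.714 FPKM at P5 and 0.297 FPKM at E18. The median log2 change of the 16 was 1.27 against P5 and 0.66 against E18. Aldoc had 318 and 402 FPKM in Adult libraries, against 24.2 and 13.0 FPKM at P5 (log2 change 4.26, adjusted p = 9.4e-05) and 10.5 and 9.72 FPKM at E18 (5.01, adjusted p = 4.5e-05). Eno2 had 286 and 272 FPKM in Adult libraries (1.35, adjusted p = 0.0004805, against P5; 2.56, adjusted p = 4.65e-05, against E18). Pfkm, the muscle-type phosphofructokinase, had 93.3 and 108 FPKM in Adult libraries, against 46.9 and 42.6 FPKM at P5 (1.15, adjusted p = 0.000428), and 36.4 and 40.1 FPKM at E18 (1.37, adjusted p = 0.0001975). Pfkl, Eno1, Pkm and Gapdh rose in Adult against P5 with log2 changes of 1.59, 1.81, 1.35 and 1.49. Bpgm, which diverts an intermediate of the chain, fell in Adult against P5 (-0.61, adjusted p = 0.003855) and in Adult against E18 (-0.77, adjusted p = 0.00144), and so did Pfkp, the platelet-type phosphofructokinase, in Adult against E18 (-0.69, adjusted p = 0.00232). The Bpgm call against P5 was lost with scaling to protein-coding genes (-0.30), and the Pfkp call with that scaling (-0.33) and with quantile normalization (-0.098). Without P5 library a, 2 genes were called lower against P5, Pfkp being the second. With TPM, 5 rose and 3 fell in Adult against E18. Aldoc is also a known marker of glia, and the glial marker sum given above was higher in Adult libraries; its part in the Aldoc level was not tested.

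**Figure D4:**
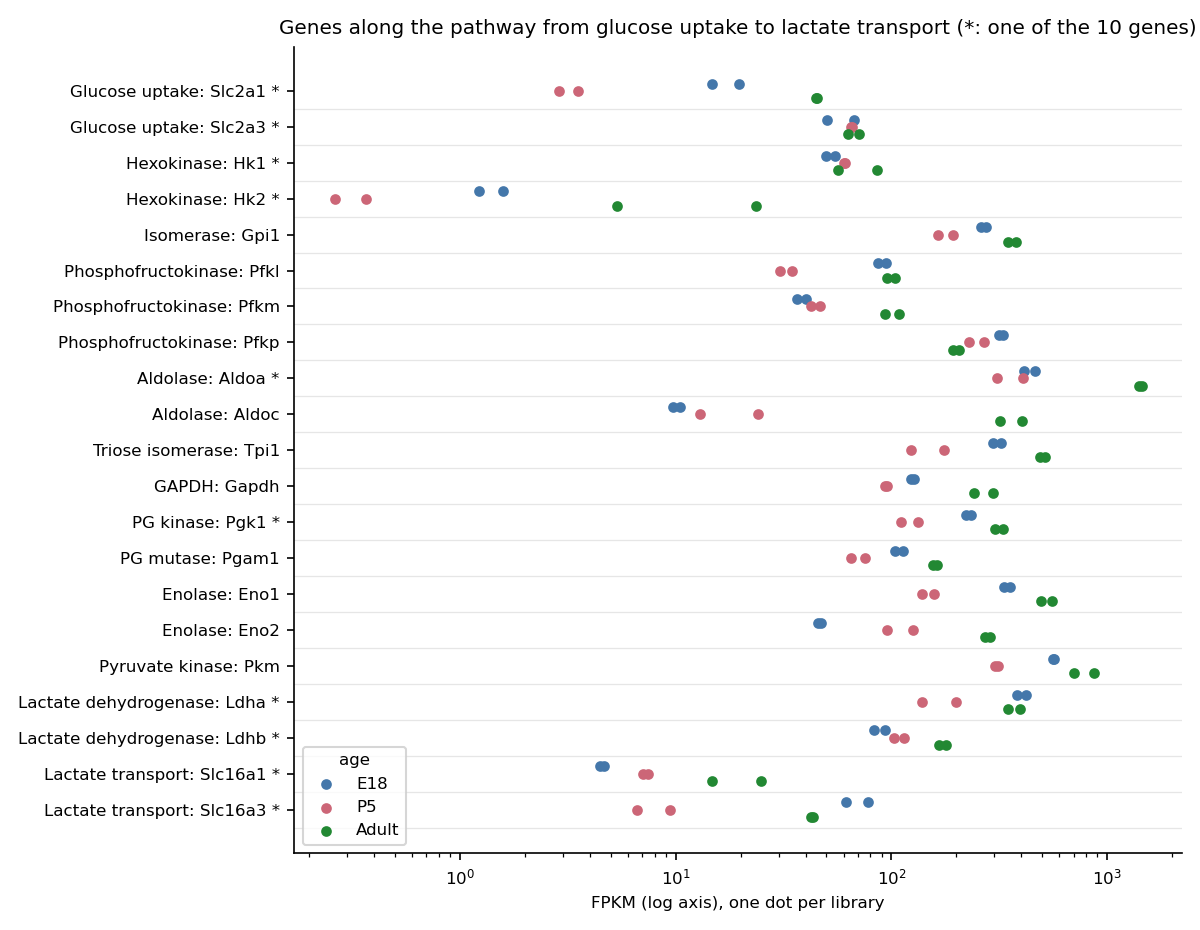
Levels in FPKM (log axis) of genes in the order of the pathway, from glucose uptake at the top to lactate transport at the bottom, with a dot per library coloured by age and a star at each of the 10 genes. P5 dots lie left of E18 and Adult dots for Slc2a1, Pfkl, Tpi1, Pgk1, Eno1 and Ldha, but Pfkp is highest at E18, and Aldoc is highest in Adult libraries, at 318 and 402 FPKM.

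Other carriers of glucose and lactate took mixed courses. Of 9 other glucose transporters, 3 were in the table and tested. Slc2a13, a proton-coupled carrier of myo-inositol, had 21.7 and 21.3 FPKM at P5, against 6.75 and 7.02 FPKM at E18 (log2 change 1.51, adjusted p = 0.00446), a call lost when E18 replicate 1 (0.0619) or library a of P5 (0.05998) was left out. It was also higher in Adult than at E18 (1.81, adjusted p = 5.2e-05). Slc2a8, an intracellular glucose carrier, had 14.2 and 12.7 FPKM in Adult libraries, against 4.47 and 5.39 FPKM at P5 (1.29, adjusted p = 0.0005155) and 6.24 and 6.18 FPKM at E18 (1.003, adjusted p = 0.0013). Of 8 tested monocarboxylate transporters and partners other than Slc16a1 and Slc16a3, 4 rose and 2 fell in Adult against P5 (26.2% and 33.7% of all tested genes), with 2 rises without Adult replicate 1, E18 replicate 1 or E18 replicate 2. With TPM, 1 rose and 4 fell. Bsg, which encodes basigin, the partner that carries MCT1 and MCT4 to the membrane, had 269 and 279 FPKM in Adult libraries, against 148 and 127 FPKM at P5 (0.997, adjusted p = 0.000458) and 149 and 149 FPKM at E18 (0.88, adjusted p = 0.000702). Both calls of Bsg were lost with TPM (0.25 and 0.26). Slc16a11 had 28.3 and 29.2 FPKM in Adult libraries, against 3.58 and 2.70 FPKM at P5 (2.85, adjusted p = 8.98e-05).

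Genes that take pyruvate into the mitochondrion moved in both directions. Of 13 tested genes of mitochondrial pyruvate entry, 2 rose and 6 fell in Adult against P5, where 26.2% and 33.7% of all tested genes did, so the counts are not a result about the list. The falls were 3 without Adult replicate 1 and 3 without Adult replicate 2, 11 with TPM, and 2 with scaling to protein-coding genes, which gave 4 rises. In P5 against E18, 4 rose and 2 fell, where 5.52% of all tested genes were called higher and 4.95% lower. Leaving out any 1 library gave fewer calls in both directions. Pdk1, which shuts pyruvate dehydrogenase, had 19.3 and 18.2 FPKM at P5, against 35.6 and 41.5 FPKM at E18 (log2 change -0.999, adjusted p = 0.0112), a call lost when E18 replicate 1 (0.0979), E18 replicate 2 (0.0822) or library a of P5 (0.08042) was left out. Pdk2, of the same function, had 24.995 and 26.6 FPKM in Adult libraries, against 2.23 and 2.08 FPKM at P5 (3.09, adjusted p = 3.59e-05) and 3.92 and 3.30 FPKM at E18 (2.54, adjusted p = 4.46e-05). Pdha1, the catalytic subunit of pyruvate dehydrogenase, had 46.8 and 45.7 FPKM in Adult libraries, against 114 and 101 FPKM at P5 (-1.20, adjusted p = 0.000406), and Pcx, pyruvate carboxylase, rose (1.58, adjusted p = 0.0004001). Of 17 tested genes of the tricarboxylic acid cycle, 3 rose and 7 fell in Adult against P5, also not far from those shares, with 5 rises without P5 library a. With TPM, 1 rose and 14 fell, and with scaling to protein-coding genes 5 rose and 4 fell. Cs, citrate synthase, had 53.8 and 52.1 FPKM in Adult libraries, against 168 and 161 FPKM at P5 (-1.62, adjusted p = 7.22e-05), while Sdha, a subunit of succinate dehydrogenase, rose (1.21, adjusted p = 0.000201). Mdh1, the cytosolic malate dehydrogenase, rose in Adult against E18 (1.31, adjusted p = 0.000223).

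Branches off the chain were also followed in Adult against P5, where 26.2% of all tested genes were called higher and 33.7% lower. Of 7 genes of the pentose phosphate pathway, 1 rose and 3 fell, with 2 rises without P5 library a and 4 rises and 2 falls with scaling to protein-coding genes. Tkt, transketolase, rose (log2 change 1.94, adjusted p = 0.000201), and Pgd, of the oxidative branch, fell (-0.91, adjusted p = 0.000712). Of 8 genes of glycogen metabolism, 0 rose, also at an unadjusted p under 0.05 in limma, and 4 fell, among them Pygb, brain glycogen phosphorylase (-1.09, adjusted p = 0.0003115). With TPM 7 fell, and with scaling to protein-coding genes 2 rose and 4 fell. Of 5 regulators of phosphofructokinase, 1 rose and 3 fell, and fewer were called lower with any 1 library left out. Pfkfb1, one of the 3 that fell, passed the level filter only through its younger libraries. The rise was lost without either P5 library and with TPM.

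For genes of the hypoxia pathway and its known targets, none among the 10 genes, the log2 change in P5 against E18 was negative in 23 of 24 tested cases. The median was -0.50, against -0.03 for all tested genes, so a negative sign was also the more common one among all tested genes. The list joins targets with regulators such as Vhl and Egln1, so a shared sign does not measure the activity of the pathway. The count of 23 takes the sign alone: the libraries of the 2 ages overlapped for Epas1 (means of 0.0197 and 0.0247 FPKM), Vhl, Ndrg1, Ero1l and Pfkfb4. Of all tested genes, 34.2% had both P5 libraries below both E18 libraries. Of the 24, 6 fell and 0 rose, and at an unadjusted p under 0.05 the limma counts were 15 and 0. Egln1 and Pdk1 were among the 6. The lists overlap: Pdk1 is also counted in mitochondrial pyruvate entry, and Pfkfb3 and Pfkfb4 among the regulators of phosphofructokinase. Of all tested genes, 4.95% were called lower and 5.52% higher. The number that fell was 3 without either Adult library, 1 without either E18 library and 0 without P5 library a. Vegfa, which drives vessel growth, had 18.4 and 18.5 FPKM at P5, against 62.4 and 73.1 FPKM at E18 (-1.82, adjusted p = 0.00453), a call lost without P5 library a (0.0666). Mxi1, a repressor of Myc targets, also fell (-1.11, adjusted p = 0.0132), a call lost when either E18 library or library a of P5 was left out. In Adult against P5, 11 rose and 2 fell, where 26.2% of all tested genes were called higher and 33.7% lower. Epas1, one of the 11, passed the level filter only through its Adult libraries, at 6.05 and 2.90 FPKM. With TPM 6 rose and 10 fell. The falls became 1 when Adult replicate 2, either E18 library or library b of P5 was left out. Vegfa had 57.9 and 68.0 FPKM in Adult libraries (1.71, adjusted p = 0.000144, against P5), and Mxi1 and Bhlhe40, a clock and hypoxia repressor, rose by 1.53 and 2.34 on the log2 scale. Vhl, which marks hypoxia-inducible factors for breakdown, had 11.998 and 11.9 FPKM in Adult libraries, against 29.0 and 38.2 FPKM at P5 (-1.40, adjusted p = 0.000465) and 37.4 and 40.3 FPKM at E18 (-1.62, adjusted p = 0.00024).

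The genes whose levels over the 6 libraries were most like that of Slc16a3 were ranked among 1984 candidates, those tested genes that reached 10 FPKM in some library and had an SD of log2(FPKM + 1) at least 50% of that of Slc16a3, symbols of predicted genes and small RNAs aside. The measure was Pearson's r of log2(FPKM + 1), a description with no test, since the libraries form 3 ages. Ngfr, a neurotrophin receptor, came first with r = 0.981, with 16.8 and 20.3 FPKM (E18), 5.87 and 5.41 FPKM (P5), 16.0 and 18.8 FPKM (Adult). Vegfa followed with r = 0.979, then Pfkl with 0.954, the histone gene Hist1h3a with 0.952 and Dapl1 with 0.951. Of the other genes described here as members of the pathway, Ldha was closest at 0.974, then Pgk1 at 0.847 and Slc2a1 at 0.804. The rest were less alike: Hk2 at 0.485, Aldoa at 0.44, Ldhb at 0.00166, Slc16a1 at 0.000815, Hk1 at -0.147 and Slc2a3 at -0.264. All these values rest in part on the E18 and P5 levels that chose Slc16a3.

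The Adult libraries lay close together for some of the 10 genes and apart for others. The ratio of replicate 1 to replicate 2 was 4.39 for Hk2, 1.69 for Slc16a1 and 1.52 for Hk1, and lay between 0.89 and 1.13 for the other 7. Slc16a3 and Slc2a1 had ratios of 0.976 and 1.01. The same ratio of summed markers was 8.47 for rods, 1.66 for RGCs, 1.06 for cones, 0.904 for bipolar cells, 0.878 for Muller glia and astrocytes and 0.795 for amacrine cells.

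**Figure D5:**
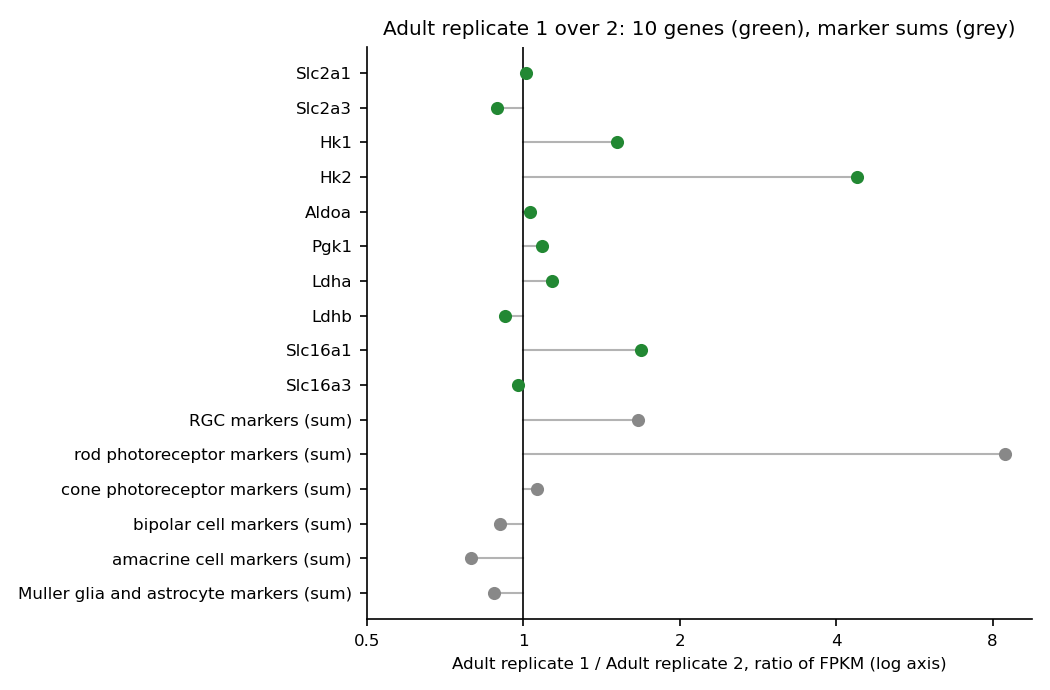
Ratio of FPKM in Adult replicate 1 to Adult replicate 2 (log axis) for the 10 genes in green and for summed markers of 6 cell types in grey, with a line at 1. Hk2 at 4.39 stands apart from the other 9 genes, and the rod markers at 8.47 stand apart from the other marker sums.

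Read assignment limits some levels. Of the stretches of 31 bases in the leading transcript, 68.3% for Pgk1, 41.4% for Ldhb, 39.2% for Ldha and 35.0% for Aldoa also occurred in transcripts of other genes, mostly processed pseudogenes, so that their levels depend on how such reads were shared out. For Slc16a3, Slc16a1, Slc2a1, Slc2a3 and Hk1 that share was 0, and for Hk2 it was 0.237%. The Aldoa locus is shared in the table with Fam57b, which had 41.2 and 10.9 FPKM in Adult libraries.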

How the data were processed

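RNA of cells labelled as RGCs was measured in 6 libraries, 2 per age; RGC markers were low in the Adult libraries. The authors deposited a level in FPKM for each isoform. Mapping to mm10 was done with HISAT2 and abundance was estimated with Cufflinks and Cuffdiff, per the submitters' processing notes; tool versions and any scaling between libraries are not given in the sources used here. The deposited table also holds isoform lengths and 9 further columns of per-sample values, which were not used. A value of 0.0001 stands for 0 and was set to 0. The P5 columns share a header, and the letters a and b tell them apart. FPKM carry no counts, so depth is unknown and no counting interval is given.

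The isoforms of each symbol were added up, 1 was added, and the log2 value went into limma 3.58.1 (R 4.3.3, age as factor, all 6 libraries, variance trend, no block), for genes with a mean of at least 1 FPKM (14390 genes, 34941 isoforms). All 10 genes passed that filter, Hk2 only through its Adult libraries (23.5 and 5.35 FPKM, against 0.264 to 1.60 FPKM in the younger ones). The fit had 3 residual degrees of freedom. Tests were two-sided, with Benjamini-Hochberg adjustment over all genes or isoforms of a comparison, called at an adjusted p under 0.05; intervals are 95%. Log2 changes understate those of low genes. Nothing in the labels says that libraries came from separate animals, so a p-value here reflects the spread of these libraries alone. On simulated data the fit recovered 61% of genes changed by 1 and 87% of those changed by 2 on the log2 scale in Adult against P5. Only 100 genes were changed at each size, none as low as Hk2, whereas 59.8% of genes were called in the data. These rates thus do not give the power of the tests reported here.

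The 10 genes, the related lists (other glycolytic enzymes, regulators of phosphofructokinase, other glucose and monocarboxylate transporters, mitochondrial pyruvate entry, tricarboxylic acid cycle, pentose phosphate pathway, glycogen metabolism, hypoxia pathway) and the markers were chosen with earlier results of these data known. Named were the 10 genes and their isoforms with a mean of at least 1 FPKM. From each list, the 3 genes with the smallest p in a comparison and the 2 with the highest mean were named. Gpi1, Tpi1, Pgam1, Gapdh, Bpgm, Pfkp, Ldhd, Egln1, Ndrg1 and Ero1l were named after their values were seen. Gene positions are from the GENCODE annotation of GRCm38. Alternatives were other pseudocounts, filters and scalings, annotated isoforms only, no variance trend, only the ages compared, a replicate block, and each library left out. One gene that the naming rule picked is not reported here.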

Additional observations from a re-analysis of the deposited data

How the results depend on the processing

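Of the alternatives run, scaling and single libraries mattered most. For the 9 tested genes, the count that rose in Adult against P5 was 7 and became 4 with TPM, and the counts that fell became 1 in Adult against P5 and 2 in Adult against E18 with TPM, in place of 0. Leaving out 1 library gave 7 to 8 rises against P5 and 4 to 7 against E18, with 0 falls in each case. For the other glycolytic enzymes in P5 against E18, leaving out 1 library gave 0 to 2 rises and 0 to 3 falls, against 1 and 6, and fitting only the 2 ages gave 3 falls. Their falls in Adult against P5 were 1 and became 2 with TPM, 0 with scaling to protein-coding genes and 1 to 2 without 1 library. Their rises in Adult against E18 became 5 with TPM, and their falls there, 2, became 1 with quantile normalization and 1 with scaling to protein-coding genes. The cause was not tested, beyond the shift of the median of all genes that TPM brings.

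Signs reversed for 5 of the 9 genes, among them 2 changes called as deposited (Ldhb against P5 and Pgk1 against E18): with TPM, Slc2a3 (-0.72 against P5, -0.41 against E18), Ldhb (-0.084 against P5), Hk1 (-0.54 against P5, -0.20 against E18) and Pgk1 (-0.15 against E18); with quantile normalization and with scaling to protein-coding genes, Ldha against E18 (0.34 and 0.26); and without a library, Slc2a3 against P5 (-0.054 without Adult replicate 2 to 0.111 without Adult replicate 1), Slc2a3 against E18 (-0.006 without E18 replicate 1 to 0.406 without E18 replicate 2) and Hk1 against P5 (-0.092 without Adult replicate 1 to 0.501 without Adult replicate 2). Over all tested genes, P5 against E18 called 795 higher and 712 lower, and 7 to 368 higher and 3 to 275 lower without 1 library, which bounds what any list can show in that comparison. Other scalings and settings gave 398 to 1479 higher and 298 to 729 lower there, 1709 to 5271 higher and 3371 to 8603 lower in Adult against P5 (3767 and 4843 as reported), and 2047 to 5357 higher and 3352 to 8138 lower in Adult against E18 (3638 and 4950). With the replicate block, possible only in Adult against E18, 6 of the 9 genes rose and 0 fell, as without it, and the deviations of same-numbered libraries had a correlation of 0.018. No paired analysis was possible because the P5 columns carry no number for the other comparisons. Depth is unknown.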
